A study of Homo sapiens with 9 samples.

Results

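The genes described here were 10 well-known transcriptional targets of p53, namely MDM2, GDF15, SESN1, SESN2, TP53I3, BBC3, FAS, ZMAT3, TP53INP1 and RRM2B. They were chosen by name, with earlier results of these data known, and were 10 of the 60199 gene symbols in the count table. All 10 passed the filter on low counts. Their RNA was compared in 3 human mammary epithelial lines that share 1 parent, the non-tumorigenic line MCF10A, which lacks CDKN2A. CT was MCF10A without added cytokine and not transformed. MC26 came from unsorted MCF10A kept under long exposure to BMP2 and IL6, and M1B26 from BMPR1B+ MCF10A cells exposed to the same cytokines. The labels give BMP2 at 5 and IL6 at 10 ng per microliter for both derived lines, whereas the study's methods state a different concentration and unit. M1B26 was expanded from 3 soft-agar clones, so it stands for few founder cells. Sorting and cytokine exposure cannot be told apart in M1B26, because no BMPR1B+ line without cytokines was analysed here. Each line had 3 poly-A libraries with 21425118 to 80076597 counts, and CT replicate 2 was the shallowest of the 9. All 12 mammary epithelial markers of the list used were detected at 1 CPM (counts scaled to library size) or more in each line, with summed levels of 10771 to 13168 CPM in CT, 17173 to 21585 CPM in MC26 and 12855 to 13696 CPM in M1B26. Of 8 fibroblast markers 3 or 4 reached 1 CPM, with summed levels of 30.6 to 72.8 CPM. LUM averaged 5.11 CPM in M1B26 beside 0.108 CPM in CT. DCN averaged 13.96 CPM in M1B26 beside 29.02 CPM in CT, which did not pass the test (adjusted p = 0.129 by edgeR). Of the 5 fibroblast markers tested in M1B26 against CT, 2 passed as higher and 0 as lower. Of 8 blood and endothelial markers 1 or 2 reached 1 CPM. Their summed levels were 11.7 to 16.3 CPM in CT, 9.82 to 18.3 CPM in MC26 and 34.3 to 49.6 CPM in M1B26. Only 2 of these markers were tested, and they moved apart in M1B26. CD14 was 4.17-fold higher there than in CT, whereas PECAM1 was lower. PECAM1 averaged 5.04 CPM in CT, 0.268 CPM in MC26 and 0.897 CPM in M1B26. The part of these markers in the results was not tested. In such bulk libraries fewer cells expressing a gene and less of its RNA per cell cannot be told apart.

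The transcription factor p53 is held at a low level in unstressed cells by MDM2, a ubiquitin ligase that marks it for degradation. DNA damage, oncogene activity or nutrient stress release this brake, and p53 then binds response elements made of paired half-sites near its targets and activates genes for cell cycle arrest, repair, metabolism and death. MDM2 is itself a target, which closes a feedback loop. Some of these genes answer to other factors as well, and GDF15 and SESN2 are also known targets of ATF4, the main transcription factor of the integrated stress response. The activity of p53 is set largely at the protein level, which RNA counts do not measure.

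Promoter windows of 300 bases (250 before and 50 after an annotated start, RefSeq, GRCh38.p14) were at hand for 8 of the 10 genes, in 16 windows. They were searched for the p53 response element, taken as a pair of abutting half-sites of 10 letters, with at most 3 mismatches over the 20 letters. The element reads the same on both strands, so each match covers both. It was found for 4 genes, MDM2, GDF15, SESN1 and FAS, and 5.2% of all 35116 windows and 6.39% of the 27305 genes with a window held one under the same rule. The mismatch limit was set with the known elements of MDM2 in mind, and a window without a match says only that these letters are not in it. The 4 windows are shown because they hold the element. SESN2, TP53I3, BBC3 and ZMAT3, whose windows held no match, also differed between lines, so a match did not set the changed genes apart. Capitals mark the element and lower case the rest, each written 5′ to 3′ on the gene's strand.
MDM2, chr12:68808767-68809066, plus strand: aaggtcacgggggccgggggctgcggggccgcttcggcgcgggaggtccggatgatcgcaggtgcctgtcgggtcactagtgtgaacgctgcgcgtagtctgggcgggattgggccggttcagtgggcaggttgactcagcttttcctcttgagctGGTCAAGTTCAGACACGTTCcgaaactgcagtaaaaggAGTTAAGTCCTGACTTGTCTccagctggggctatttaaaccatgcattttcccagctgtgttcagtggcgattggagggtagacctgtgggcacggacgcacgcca
GDF15, chr19:18385908-18386207, plus strand: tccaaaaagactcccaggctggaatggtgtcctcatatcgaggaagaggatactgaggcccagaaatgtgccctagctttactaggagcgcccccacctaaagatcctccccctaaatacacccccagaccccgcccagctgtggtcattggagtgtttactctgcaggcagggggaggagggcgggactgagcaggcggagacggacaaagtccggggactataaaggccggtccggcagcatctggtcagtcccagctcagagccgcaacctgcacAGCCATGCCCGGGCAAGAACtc
SESN1, chr6:109008939-109009238, minus strand: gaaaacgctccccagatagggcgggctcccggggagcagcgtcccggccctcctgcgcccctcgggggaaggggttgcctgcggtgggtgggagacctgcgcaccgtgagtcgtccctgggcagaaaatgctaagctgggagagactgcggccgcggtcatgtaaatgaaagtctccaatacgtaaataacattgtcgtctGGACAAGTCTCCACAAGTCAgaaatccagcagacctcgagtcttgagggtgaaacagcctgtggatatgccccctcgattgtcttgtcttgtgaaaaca
FAS, chr10:88991181-88991480, plus strand: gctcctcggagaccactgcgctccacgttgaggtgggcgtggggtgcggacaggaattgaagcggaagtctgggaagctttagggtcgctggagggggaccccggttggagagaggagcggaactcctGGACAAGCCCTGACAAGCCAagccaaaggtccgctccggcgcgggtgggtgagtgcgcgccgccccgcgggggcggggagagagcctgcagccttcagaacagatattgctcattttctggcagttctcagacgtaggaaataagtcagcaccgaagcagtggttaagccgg
The first element of MDM2 (68808923 to 68808942) had 2 mismatches and the second (68808961 to 68808980) had 3. Both lay in intron 1 of the gene's MANE Select transcript, the one reference transcript per gene agreed between annotations, 746 and 784 bases after its start. The FAS element had 2 mismatches and lay in intron 1, 511 bases after the start. The SESN1 element had 3 mismatches and lay in intron 1 of the long transcript, beside the start of a shorter one. The GDF15 element had 3 mismatches and lay 28 bases after the start in exon 1, partly in coding sequence. Matches of at most 2 mismatches, as in MDM2 and FAS, were present in 0.649% of all windows.

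Relative to CT, 8 of the 10 targets differed in MC26, in both directions. SESN2, TP53I3 and FAS were higher, and GDF15, SESN1, BBC3, TP53INP1 and RRM2B were lower, whereas MDM2 and ZMAT3 did not pass the test. In this comparison 38.7% of the 15717 genes tested were called at an adjusted p under 0.05 (edgeR quasi-likelihood test, Benjamini-Hochberg), 18.8% as higher and 19.9% as lower. The median log2 fold change was -0.29 over the 10 targets and near 0 over all genes tested. In 7 of the 10 the CPM values of the lines did not overlap, as in 50.3% of all genes. In M1B26 against CT, 5 of the 10 targets were called beside 48.9% of all genes, so this share was close to the background. MDM2, SESN2 and FAS were higher (25.2% of all genes were), and TP53I3 and ZMAT3 were lower (23.7% were). The median over the targets was -0.16, and the 5 called genes were also the 5 without overlap, which 59% of all genes were. Between the derived lines, 6 of the 10 targets were called in M1B26 against MC26, beside 39.5% of all genes. MDM2, GDF15, SESN1 and FAS were higher in M1B26, where 21.2% of all genes were called higher, and TP53I3 and ZMAT3 were lower, as 18.4% were. The median was 0.30, and 7 targets did not overlap beside 53.5% of all genes. Both comparisons with CT share the CT libraries, so a low or high CT value enters each of them. Leaving out 1 library at a time moved the number of targets called to between 4 and 8 in MC26 against CT, with 4 left without MC26 replicate 2, to between 3 and 5 in M1B26 against CT, with 3 left without M1B26 replicate 1, and to between 4 and 10 in M1B26 against MC26. All 10 were called in the last comparison without MC26 replicate 3, and 4 were called without MC26 replicate 1, MC26 replicate 2 or M1B26 replicate 1. Over all genes, these 4 fits called 6223, 4999, 4503 and 5150 in that comparison. Without 1 library, 4524 to 6127 of all genes were called in MC26 against CT and 6282 to 7941 in M1B26 against CT.

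**Figure D1:**
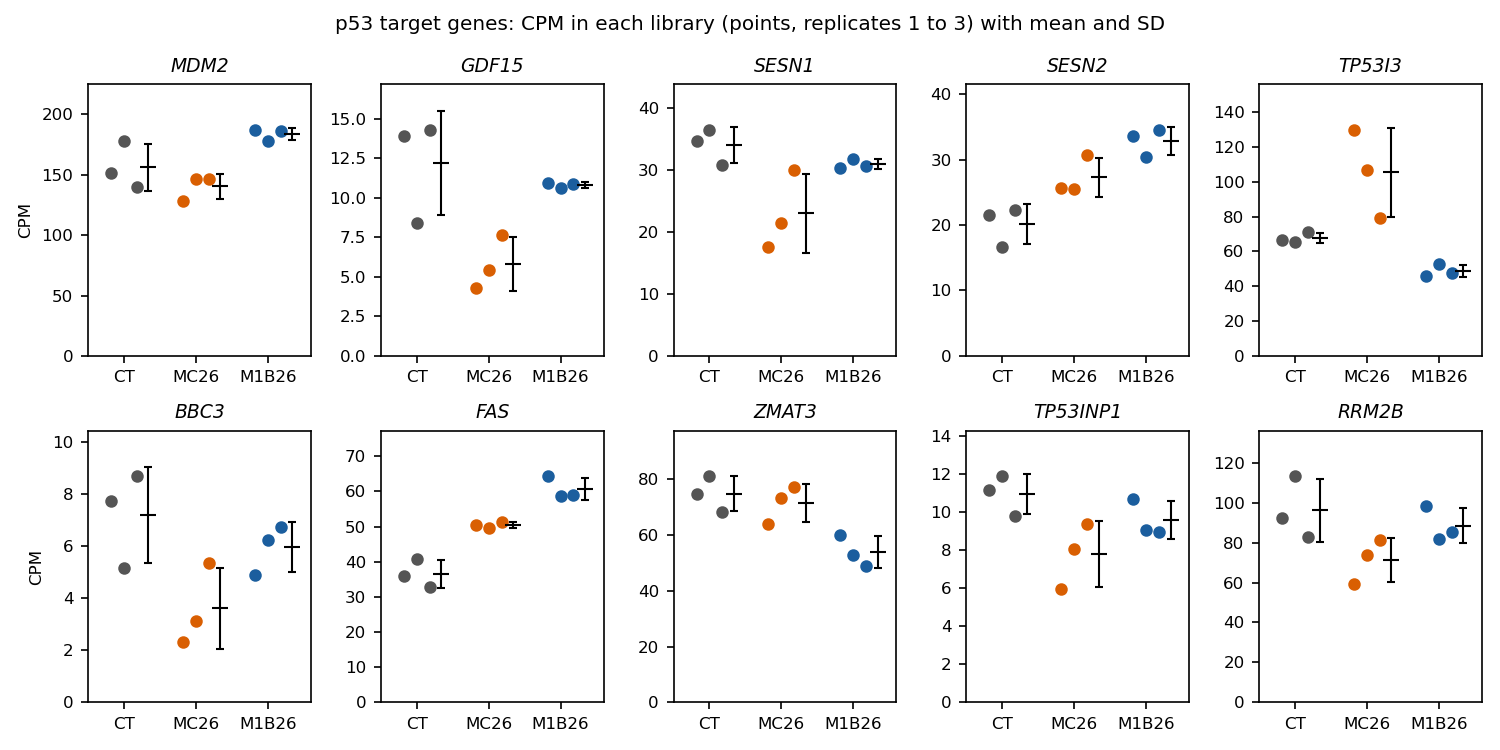
CPM (linear axis from 0, scaled by TMM) of the 10 p53 target genes in the 9 libraries. Points are libraries in the order of replicates 1 to 3 within each line, and the black mark and bars give the mean and SD (n = 3); FAS rises from CT to MC26 to M1B26 without overlap, TP53I3 is highest in MC26 and lowest in M1B26, and GDF15 is lowest in MC26.

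MDM2, the ubiquitin ligase that restrains p53, differed little. It stood at 151, 177 and 140 CPM in CT replicates 1 to 3, at 128, 146 and 146 CPM in MC26, and at 187, 178 and 186 CPM in M1B26. The M1B26 libraries were the 3 highest of the 9, although the lowest of them exceeded the highest CT library by less than 1 CPM. M1B26 was 1.31-fold above MC26 (log2 fold change 0.39, SE 0.091, adjusted p = 0.00640 by edgeR). M1B26 was 1.18-fold above CT (0.24, SE 0.090, adjusted p = 0.0494 by edgeR), and this call was lost without any 1 of 7 of the 9 libraries (adjusted p up to 0.177, without CT replicate 3) and under RLE scaling (adjusted p = 0.0516). With the 6 libraries of these lines alone it was 0.0609. MC26 and CT overlapped and the difference was not called (-0.15, 95% interval -0.35 to 0.05, adjusted p = 0.210 by edgeR).

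GDF15, a secreted stress cytokine of the TGF-beta superfamily, showed the largest log2 decrease among the 10 in MC26 against CT. It stood at 13.9, 8.38 and 14.3 CPM in CT, at 4.28, 5.44 and 7.64 CPM in MC26, and at 10.9, 10.6 and 10.9 CPM in M1B26. All MC26 libraries lay below all others, while the M1B26 values fell inside the CT range. MC26 was 2.13-fold below CT (-1.09, SE 0.22, adjusted p = 0.00260 by edgeR), and M1B26 was 1.86-fold above MC26 (0.90, SE 0.22, adjusted p = 0.00807 by edgeR). Both calls held without any single library. M1B26 against CT was not called (-0.20, 95% interval -0.66 to 0.26), but with offsets for gene length and GC content it was called lower (-0.44, adjusted p = 0.0380 by edgeR). The M1B26 libraries varied least, with a coefficient of variation (CV) of 1.60%, against 27.1% in CT and 29.6% in MC26.

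The sestrins, stress proteins that restrain mTORC1 growth signalling, moved apart. SESN1 stood at 34.8, 36.5 and 30.8 CPM in CT, at 17.5, 21.5 and 29.96 CPM in MC26, and at 30.4, 31.8 and 30.6 CPM in M1B26. SESN2, which also senses leucine, stood at 21.5, 16.7 and 22.3 CPM in CT, at 25.6, 25.5 and 30.7 CPM in MC26, and at 33.6, 30.4 and 34.6 CPM in M1B26. SESN1 was thus lowest in MC26 with no overlap, though MC26 replicate 3 came within 1 CPM of both other lines, and SESN2 was lowest in CT with no overlap. SESN1 was 1.47-fold lower in MC26 than in CT (-0.56, SE 0.16, adjusted p = 0.0152 by edgeR), a call lost without MC26 replicate 2 (adjusted p = 0.0582). SESN1 was 1.34-fold higher in M1B26 than in MC26 (0.43, SE 0.16, edgeR adjusted p = 0.0478), and this call held in only 1 of the 9 fits that left out a library, that without MC26 replicate 3, with an adjusted p of up to 0.141 in the others. SESN2 was 1.34-fold higher in MC26 (0.42, SE 0.12, adjusted p = 0.0143) and 1.62-fold higher in M1B26 (0.69, SE 0.12, adjusted p = 5.88e-04) than in CT by edgeR. Between the derived lines SESN2 was not called (0.27, adjusted p = 0.0844 by edgeR), but it was with no filter on low counts (0.0402), with only the 6 libraries (0.0472), with offsets for length and GC content (0.0101) and without CT replicate 2 (0.0331) or MC26 replicate 3 (0.0311).

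TP53I3, an NADPH-dependent quinone oxidoreductase tied to oxidative stress, gave the largest difference between the derived lines. It stood at 66.6, 65.2 and 70.9 CPM in CT, at 130, 107 and 79.4 CPM in MC26, and at 45.8, 52.5 and 47.6 CPM in M1B26. No library of any line fell inside the range of another line. MC26 was 1.56-fold above CT (0.64, SE 0.14, adjusted p = 0.00464) and M1B26 was 1.39-fold below CT (-0.48, SE 0.14, adjusted p = 0.0167) by edgeR, the latter lost without M1B26 replicate 1 (adjusted p = 0.0671). M1B26 was 2.17-fold below MC26 (-1.11, SE 0.14, adjusted p = 1.86e-04 by edgeR), and of the 10 targets only TP53I3 in this comparison passed a test against a fold of 1.5 (glmTreat, adjusted p = 0.00895).

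BBC3 encodes PUMA, a BH3-only protein that starts mitochondrial apoptosis, and FAS encodes a death receptor of the cell surface. BBC3 was scarce, at 7.76, 5.15 and 8.70 CPM in CT, 2.34, 3.14 and 5.36 CPM in MC26, and 4.91, 6.25 and 6.76 CPM in M1B26. FAS stood at 36.1, 40.8 and 32.9 CPM in CT, at 50.3, 49.6 and 51.2 CPM in MC26, and at 64.3, 58.8 and 59.1 CPM in M1B26. The lines overlapped for BBC3 and were fully separated for FAS. BBC3 was 2.02-fold lower in MC26 than in CT (-1.01, SE 0.28, adjusted p = 0.0140 by edgeR), a call lost without CT replicate 3 (adjusted p = 0.0540) or MC26 replicate 2 (0.0565). In M1B26 it differed from neither line by the main test (-0.29 against CT and 0.72 against MC26, the latter at an adjusted p of 0.0594 by edgeR), but against MC26 it was called with DESeq2 (0.0305), with no filter (8.99e-04) and without CT replicate 2 (0.0487) or MC26 replicate 3 (0.00381). FAS was 1.38-fold higher in MC26 (0.47, SE 0.082, adjusted p = 0.00116) and 1.67-fold higher in M1B26 (0.74, SE 0.081, adjusted p = 3.65e-05) than in CT by edgeR, and both held without any single library. FAS was 1.2-fold higher in M1B26 than in MC26 (0.27, SE 0.081, adjusted p = 0.0217 by edgeR), lost without MC26 replicate 1 (0.0510), MC26 replicate 2 (0.0713) or M1B26 replicate 1 (0.0780). ACTA2, which overlaps FAS on the opposite strand, had 30.5% as many counts as FAS over all libraries, and whether the counting used strand is not known. ACTA2 was lower in MC26 than in CT (-0.38, adjusted p = 0.0426), was not called in M1B26 against CT (-0.01), and was higher in M1B26 than in MC26 (0.36, adjusted p = 0.0486) by edgeR. Its part in the FAS values was not tested.

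ZMAT3, an RNA-binding protein that affects splicing, was the only target called lower in M1B26 against both other lines besides TP53I3. It stood at 74.8, 81.0 and 68.3 CPM in CT, at 63.9, 73.2 and 77.0 CPM in MC26, and at 60.1, 52.8 and 48.9 CPM in M1B26. All M1B26 libraries lay below all others, and CT and MC26 overlapped. M1B26 was 1.38-fold below CT (-0.47, SE 0.098, adjusted p = 0.00252) and 1.32-fold below MC26 (-0.40, SE 0.098, adjusted p = 0.00796) by edgeR. Both calls held without any single library. With offsets for length and GC content the difference from CT shrank to -0.23 (adjusted p = 0.0533 by edgeR).

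TP53INP1, a protein that promotes autophagy and p53-dependent death, and RRM2B, the p53-inducible subunit of ribonucleotide reductase that supplies nucleotides for repair, had the same order of lines. TP53INP1 stood at 11.1, 11.9 and 9.78 CPM in CT, at 5.97, 8.05 and 9.36 CPM in MC26, and at 10.7, 9.04 and 8.94 CPM in M1B26. RRM2B stood at 92.4, 113 and 82.7 CPM in CT, at 59.5, 73.6 and 81.3 CPM in MC26, and at 98.3, 81.9 and 85.2 CPM in M1B26. MC26 lay below CT without overlap for both, by less than 2 CPM between the nearest RRM2B libraries and less than 1 CPM for TP53INP1. In MC26, TP53INP1 was 1.4-fold lower (-0.48, SE 0.15, adjusted p = 0.0295) and RRM2B 1.34-fold lower (-0.42, SE 0.13, adjusted p = 0.0275) than in CT by edgeR. Each call was lost without CT replicate 1, CT replicate 2, MC26 replicate 1 or MC26 replicate 2, with adjusted p values of up to 0.0947 for TP53INP1 and up to 0.104 for RRM2B. In M1B26 neither was called against CT (-0.19, 95% interval -0.52 to 0.15, and -0.12, 95% interval -0.41 to 0.18). Against MC26 neither was called (0.29, adjusted p = 0.154, and 0.31, adjusted p = 0.0894 by edgeR), and without MC26 replicate 3 both were (0.0367 and 0.0392). RRM2B was also called there with no filter on low counts (0.00784) and with offsets for length and GC content (0.0429). NDUFAF6, on the strand opposite to TP53INP1, had 140% of its counts and was not called in any comparison.

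**Figure D2:**
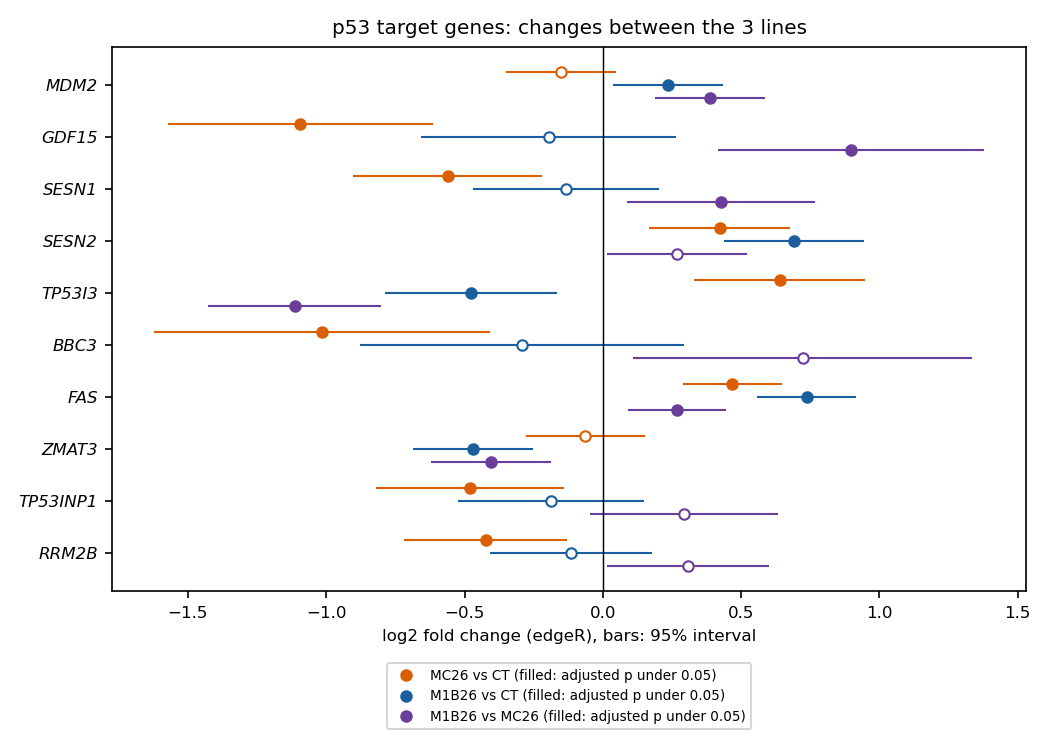
Log2 fold changes of the 10 p53 target genes by edgeR, comparing MC26 with CT (orange), M1B26 with CT (blue) and, between the derived lines, M1B26 with MC26 (purple). Bars are 95% intervals, filled points have an adjusted p under 0.05 and open points do not; the largest changes are GDF15 at -1.09 and BBC3 at -1.01 in MC26 against CT and TP53I3 at -1.11 in M1B26 against MC26.

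Levels were compared between genes as CPM per kb of the MANE Select transcript (GENCODE v44). TP53I3 was the most abundant of the 10 per kb in each line, with means of 40.9 ± 1.81 (CT), 63.7 ± 15.3 (MC26) and 29.4 ± 2.10 (M1B26, each ± SD, n = 3). MDM2 came next at 20.8 ± 2.6, 18.7 ± 1.38 and 24.5 ± 0.682, and RRM2B at 20.1 ± 3.26, 15.0 ± 2.32 and 18.5 ± 1.81 in the same order of lines. TP53INP1 was the least abundant at 1.95, 1.39 and 1.71, after BBC3 at 3.90, 1.96 and 3.23. The middle of the order changed between lines. In CT, GDF15 at 10.2, FAS at 9.90 and ZMAT3 at 8.36 per kb were neighbours whose ranges overlapped, as those of MDM2 and RRM2B did. FAS reached 13.6 in MC26 and 16.4 in M1B26, ranking above GDF15 at 4.82 and 9.0. The sestrins stood close together in CT, at 6.0 per kb for SESN1 and 5.83 for SESN2 with overlapping ranges, whereas SESN2 stood at 7.88 against 4.06 in MC26 and at 9.5 against 5.46 in M1B26, without overlap.

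**Figure D3:**
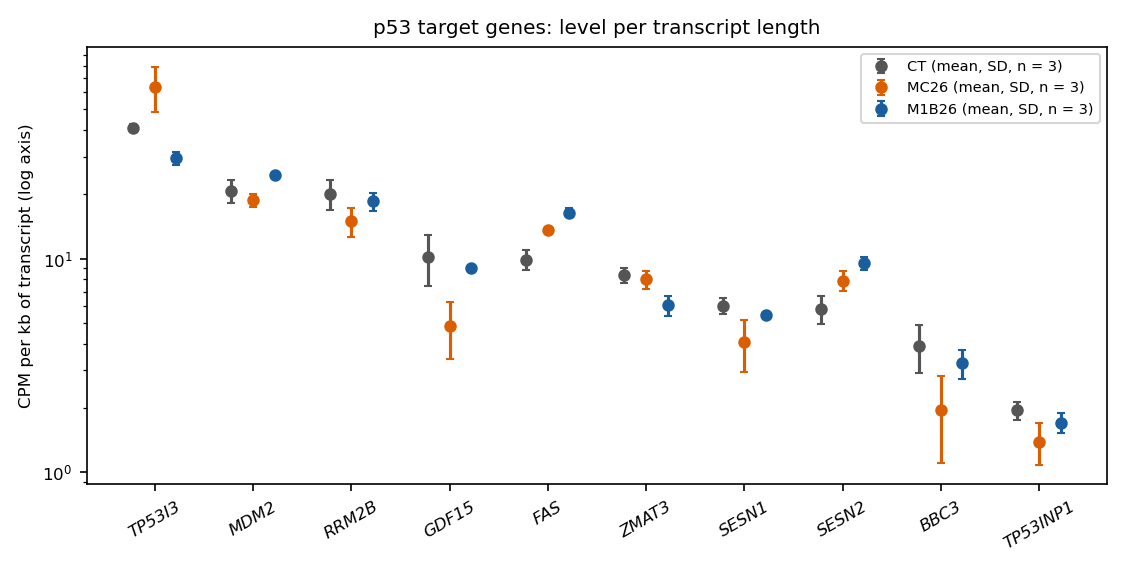
Mean level of the 10 p53 target genes in CPM per kb of the MANE Select transcript (log axis) in each line, with SD over 3 libraries as bars. Genes are ordered by their CT level, with TP53I3 highest in every line, TP53INP1 lowest, and the sestrins level in CT but apart in MC26 and M1B26.

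The median CV of the targets was highest among the MC26 libraries. Over the 10 it was 18.7% in MC26, 11.7% in CT and 6.87% in M1B26, while over all tested genes of at least 5 CPM it was 6.21%, 7.73% and 5.68%. MC26 replicate 3 was the highest MC26 library for 9 of the 10 targets, as it was for 37.7% of 10635 genes, and it was the lowest for TP53I3. The targets MDM2, GDF15, SESN1, BBC3, ZMAT3, TP53INP1 and RRM2B were lowest in MC26 replicate 1 and highest in replicate 3, an order that 23.7% of all genes had, and TP53I3 had the reverse order. MC26 replicate 3 was also the MC26 library nearest to CT for GDF15, SESN1, TP53I3, BBC3, TP53INP1 and RRM2B, which was not counted over all genes. GDF15, SESN1, TP53I3, BBC3 and TP53INP1 had their highest CV in MC26, and the other 5 targets did not, with FAS at 1.63% there. In CT, replicate 2 was an extreme for all 10 targets, highest for 6 and lowest for 4, and it was the highest CT library for 44.7% of the 10635 genes that averaged 5 CPM or more. The share of genes for which it was the lowest was not counted, so 44.7% is not the background for being an extreme. These orders were noticed after the values were seen, and replicate numbers carry no order. Without CT replicate 2, 6 targets were called in MC26 against CT, 5 in M1B26 against CT and 7 in M1B26 against MC26. Over all genes that fit called 6040, 7506 and 7166.

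**Figure D4:**
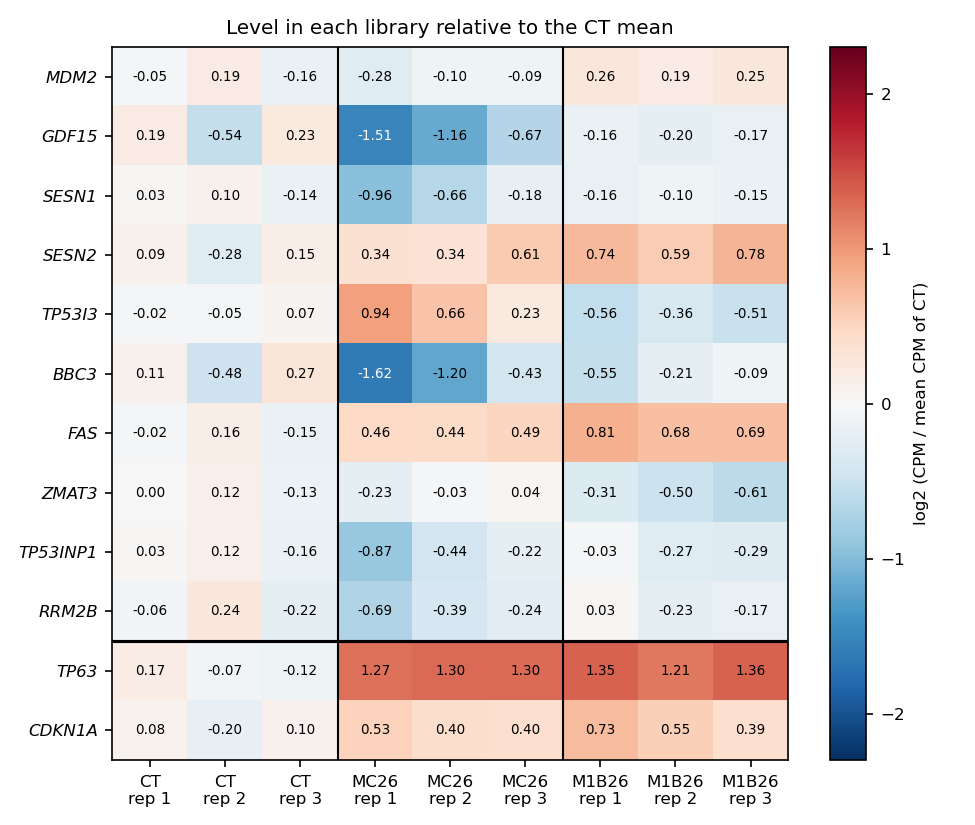
Log2 of the CPM in each library over the mean CPM of the 3 CT libraries, for the 10 targets (above the line) and for TP63 and CDKN1A. The MC26 libraries differ among themselves for some targets, with GDF15 at -1.51, -1.16 and -0.67 and TP53I3 at 0.94, 0.66 and 0.23 in replicates 1 to 3.

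TP63, the p53 relative that maintains basal epithelium and can bind many of the same elements, was higher in both derived lines. It stood at 35.9, 30.5 and 29.3 CPM in CT, at 76.9, 78.7 and 78.5 CPM in MC26, and at 81.4, 73.8 and 81.6 CPM in M1B26. MC26 was 2.44-fold (1.29, SE 0.084, adjusted p = 1.54e-06) and M1B26 2.47-fold (1.31, SE 0.083, adjusted p = 9.36e-07) above CT by edgeR, and the derived lines overlapped (0.02, 95% interval -0.16 to 0.20). MDM4, which restrains p53 beside MDM2, was not called (-0.27 in MC26 and -0.22 in M1B26, each against CT, and 0.05 between the derived lines). It was called lower than CT in both without CT replicate 3 (adjusted p = 0.0144 and 0.0184 by edgeR) and with library totals alone (0.0287 and 0.0334). In MC26 it was also called lower with no filter (0.03965), with a mean of at least 50 counts (0.0464) and without MC26 replicate 3 (0.0485). The fit with offsets for gene length and GC called MDM4 higher in M1B26 than in MC26 (0.26, adjusted p = 0.0346). PPM1D, a phosphatase that switches off p53 signalling, was called in M1B26 against MC26 (0.33, SE 0.093, edgeR adjusted p = 0.0159), lost without MC26 replicate 1 (0.0571) or replicate 2 (0.0636), and it lies on chromosome 17, whose 843 tested genes had a median log2 fold change of 0.48 in this comparison. Against CT it was not called in M1B26 (0.22, adjusted p = 0.0682 by edgeR), but it was under offsets for gene length and GC (0.32, adjusted p = 0.00860), with the 6 libraries alone (0.0438) and without MC26 replicate 1 (0.0451) or replicate 3 (0.0266). HIPK2, a kinase that activates p53, was lower in both derived lines, averaging 198 ± 14.9 CPM (CT), 151 ± 8.25 (MC26) and 83.5 ± 12.1 (M1B26), each with its SD over 3 libraries, with log2 fold changes of -0.39 (adjusted p = 0.0112) and -1.24 (5.56e-06) against CT by edgeR. RPL5, a ribosomal protein that can bind and block MDM2, was 1.49-fold higher in M1B26 than in MC26 (0.57, SE 0.067, edgeR adjusted p = 1.02e-04). Of 20 relatives and regulators of p53, 4 were higher and 2 lower in MC26 against CT, 4 higher and 8 lower in M1B26 against CT, and 2 higher and 6 lower in M1B26 against MC26. These were 30%, 60% and 40% of the list, beside 38.7%, 48.9% and 39.5% of all genes. Of all genes, 18.8%, 25.2% and 21.2% were called higher and 19.9%, 23.7% and 18.4% lower.

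Beyond the 10, 44 other p53 targets were listed and 43 passed the filter (RRAD did not). In MC26 against CT 14 were higher and 4 lower, in M1B26 against CT 16 higher and 8 lower, and in M1B26 against MC26 11 higher and 5 lower. Both directions together, these were 41.9%, 55.8% and 37.2% of the tested genes, near the background of each comparison taken the same way. By direction, the list held more higher than lower calls in each comparison. Of all genes tested, 18.8%, 25.2% and 21.2% were called higher and 19.9%, 23.7% and 18.4% lower. The medians of the list were -0.03, 0.17 and 0.10. CDKN1A, which encodes the cell cycle inhibitor p21, stood at 166, 137 and 168 CPM in CT, at 226, 207 and 206 CPM in MC26, and at 261, 229 and 206 CPM in M1B26. It was 1.36-fold higher in MC26 (0.44, SE 0.10, adjusted p = 0.00592) and 1.48-fold higher in M1B26 (0.56, SE 0.10, adjusted p = 9.86e-04) than in CT by edgeR, without overlap. BAX, a pore-forming protein of mitochondrial apoptosis, was not called in any comparison (0.03, 0.17 and 0.14), and its sign turned with offsets for length and GC content, which called it lower in M1B26 than in the parent (edgeR, -0.16, adjusted p = 0.0400).

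Among the other targets that moved most, PMAIP1 and SFN were higher in both derived lines. PMAIP1 encodes NOXA, a BH3-only protein like PUMA, and was 2.28-fold higher in MC26 (1.19, adjusted p = 5.44e-05) and 2.53-fold higher in M1B26 (1.34, adjusted p = 1.62e-05) than in CT by edgeR. SFN, the 14-3-3 sigma protein of G2 arrest, was 1.98-fold and 2.12-fold higher (0.99, adjusted p = 2.80e-04, and 1.08, adjusted p = 9.72e-05 by edgeR). BBC3 was thus lower in MC26 where PMAIP1 was higher. CCNG1, a cyclin of the p53 feedback network, was lower in both (-0.63 and -0.37, adjusted p = 0.00182 and 0.0217 by edgeR). SERTAD1, a regulator of CDK4 and E2F, exceeded its CT level in each derived line (1.15 for MC26 and 0.68 for M1B26, both called). NINJ1 (-0.78), which acts in plasma membrane rupture, and CYFIP2 (-1.66), a part of the WAVE actin complex, were lower in MC26. In M1B26 FDXR, the mitochondrial ferredoxin reductase, was higher than in CT (1.02), and TIGAR (-0.37), which lowers glycolytic flux, and the carboxylesterase CES2 (-0.41) were lower. FDXR lies on chromosome 17, whose 843 tested genes had a median of 0.475 in M1B26 against CT and 0.478 against MC26. The part of this shift in the FDXR values was not tested. Between the derived lines CYFIP2 (1.37), FDXR (1.29) and BID (0.68), the BH3 protein that links death receptors to mitochondria, were higher in M1B26. CES2 (-0.34), the repressor E2F7 (-0.42) and SERTAD1 (-0.47) were lower there. Some of these smaller calls rested on single libraries. CCNG1 in M1B26 against CT was lost without CT replicate 2, M1B26 replicate 1 or M1B26 replicate 2 (adjusted p up to 0.0849), and TIGAR without CT replicate 2, M1B26 replicate 2 or M1B26 replicate 3 (up to 0.0961). With offsets for length and GC content TIGAR shrank to -0.13 (adjusted p = 0.328 by edgeR). Between the derived lines E2F7 was lost without MC26 or M1B26 replicates 1 or 2 (up to 0.0911), and SERTAD1 without CT replicate 1, MC26 replicate 1, M1B26 replicate 2 or M1B26 replicate 3 (up to 0.170).

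Because GDF15 and SESN2 also answer to ATF4, 16 other ATF4 targets were set beside them. In MC26 against CT 3 were higher and 7 lower, in M1B26 against CT 6 were higher and 4 lower, and in M1B26 against MC26 8 were higher and 2 lower, with medians of -0.16, 0.10 and 0.31. The share called was 62.5% in each, beside 38.7%, 48.9% and 39.5% of all genes (18.8%, 25.2% and 21.2% higher, 19.9%, 23.7% and 18.4% lower). SLC7A11, the cystine transporter, was higher in MC26 than in CT (1.35, adjusted p = 2.47e-04 by edgeR) and lower in M1B26 than in MC26 (-0.88). PHGDH, the first enzyme of serine synthesis, was lower in MC26 (-1.43, adjusted p = 6.49e-06 by edgeR). DDIT4, an inhibitor of mTORC1 like the sestrins, was higher in M1B26 than in either other line (0.65 against CT and 1.18 against MC26, the latter at an adjusted p of 1.46e-04 by edgeR). In MC26 DDIT4 was lower than in CT (-0.54, adjusted p = 0.0132 by edgeR). STC2, a secreted stress glycoprotein, was lower than in CT in M1B26 (-0.76) and in MC26 (-0.71, adjusted p = 0.0112 by edgeR). The ATF4 list therefore held members that moved like GDF15 and others that moved the opposite way.

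Cell cycle genes that p53 is known to repress through p21 were counted too, 18 in number. In MC26 against CT 6 were higher and 1 lower, in M1B26 against CT 3 were higher and 3 lower, and in M1B26 against MC26 1 was higher and 9 lower. These were 38.9%, 33.3% and 55.6% of the list, beside 38.7%, 48.9% and 39.5% of all genes (18.8%, 25.2% and 21.2% higher, 19.9%, 23.7% and 18.4% lower). RRM2, the S-phase partner of ribonucleotide reductase for which RRM2B is the p53-inducible counterpart, was 0.65 higher on the log2 scale in MC26 than in CT (adjusted p = 7.22e-04 by edgeR), where RRM2B was lower. CENPF, a kinetochore protein, was lower in MC26 (-0.37, lost without CT replicate 2 at 0.0514 or MC26 replicate 3 at 0.0580) and M1B26 (-1.12, adjusted p = 1.61e-05 by edgeR) than in CT. BIRC5, which encodes survivin, was higher in M1B26 than in CT (0.85) and MC26 (0.69), and it lies on chromosome 17. MKI67, a proliferation marker, was lower in M1B26 than in MC26 (-1.04, adjusted p = 4.91e-05 by edgeR).

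**Figure D5:**
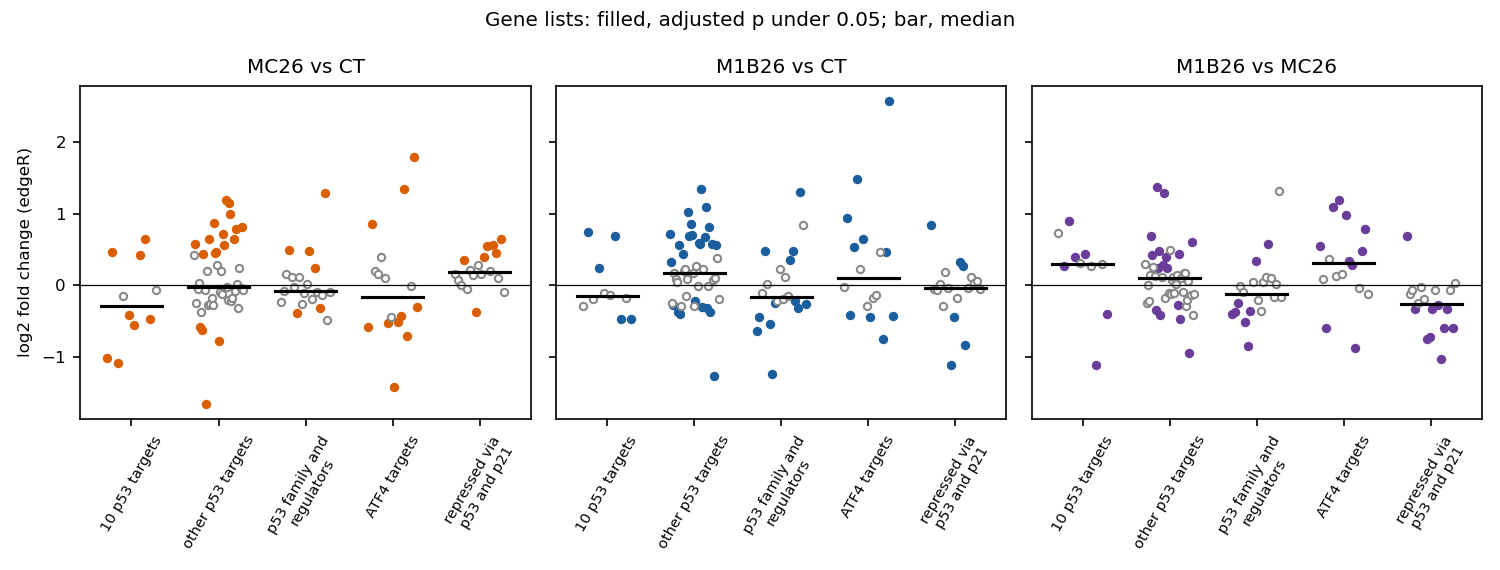
Log2 fold changes by edgeR of the 10 p53 targets and of 4 other gene lists in the 3 comparisons. Each point is a gene, filled where its adjusted p is under 0.05, and the bar is the list's median, which for the 10 targets is -0.29, -0.16 and 0.30 from left to right.

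The genes whose pattern over the 9 libraries was most like that of MDM2 were PLA2G4A, CD46 and ELP2, by the root mean square difference of log2 CPM centred on each gene's mean (0.0385, 0.0419 and 0.0481, among 10634 genes of at least 5 CPM). None of the 10 targets was among these. For GDF15 the nearest were PLPP2, SLC43A2 and H2AW, at 0.132, 0.143 and 0.155. This distance is not scaled and grows with a gene's own spread, so the values for MDM2 and GDF15 cannot be ranked against each other. PLPP2 differed by -1.01 in MC26 against CT on the log2 scale, and GDF15 by -1.09. PLPP2 was picked for its match over these same libraries, so this likeness is not a separate result.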

How the data were processed

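Poly-A RNA of the 9 libraries was sequenced in paired-end mode, and groups and replicate numbers were taken from the sample titles. The values deposited by the authors were raw read counts per gene symbol, which were whole numbers. The submitters' processing notes name GRCh38, STAR 2.7.3a and Salmon 1.1.0. How reads were assigned to genes, whether strand was used and how multi-mapping reads were handled are not given in the sources used here, so overlapping opposite-strand genes are given beside the results they touch.

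The fits used edgeR 4.0.16 (R 4.3.3). The filter filterByExpr at a minimum count of 10 left 15717 genes, TMM factors ran from 0.969 to 1.07, and 1 quasi-likelihood model with no covariate beside the line took in the 9 libraries together. The 3 contrasts were tested with glmQLFTest (2-sided), p-values were adjusted over all genes tested, and an adjusted p under 0.05 was called. The biological coefficient of variation was 10.4%. CPM used TMM-scaled library sizes, and 3 counts in the shallowest library came to 0.131 CPM. Replicates are 3 libraries per line, which the series describes as independent cultures.

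Transcript lengths and positions came from GENCODE v44 (36923 of 60199 symbols matched 1 gene), and promoter windows from RefSeq. The 10 genes and all gene lists were chosen with earlier results of these data known. Further genes were named by rule. They were CDKN1A, BAX, TP63, MDM4 and PPM1D in any case, and per comparison the called genes of at least 5 CPM with the highest and lowest log2 fold changes, 3 each way of the other p53 targets and 1 each way of every other list. For MDM2 and GDF15 the 3 genes of nearest pattern were added. A further gene of the rule is not reported here and was left out of the lists. Alternatives were DESeq2 1.42.0, RLE or no scaling, other filters and thresholds, a replicate block, offsets for length and GC content, the 6 libraries compared alone, and leaving out each library.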

Additional observations from a re-analysis of the deposited data

Results flagged for a closer look

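For 7 of the 15 genes examined one by one (the 10 targets, CDKN1A, BAX, TP63, MDM4 and PPM1D) the effect in M1B26 differed from that in MC26 by the test of the difference itself, which is the comparison of the derived lines and cancels the shared CT libraries. In this comparison 39.5% of all genes were called. The log2 differences (M1B26 minus MC26) were 0.39 for MDM2, 0.90 for GDF15, 0.43 for SESN1 and 0.27 for FAS among the targets higher in M1B26, the call of SESN1 being lost in 8 of the 9 fits that left out a library. They were -1.11 for TP53I3 and -0.40 for ZMAT3 among those lower. PPM1D, a phosphatase that switches off p53 signalling, differed by 0.33. TP53I3 had opposite signs against CT, 0.64 in MC26 and -0.48 in M1B26, both called by edgeR, while SESN2, called higher than CT in both lines, did not pass the test of the difference. PPM1D lies on chromosome 17, whose tested genes had a median of 0.48 in M1B26 against MC26, and its part in this difference was not tested.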

How the results depend on the processing

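The direction of every called change of the 10 targets held under each alternative. A threshold fold of 1.5 (glmTreat) left 0 of the 10 targets called in MC26 against CT, 0 in M1B26 against CT and 1 in M1B26 against MC26, and an adjusted p under 0.01 left 3 in MC26 against CT and 3 in M1B26 against CT. The same fold left 4, 5 and 2 of the other p53 targets, 1, 2 and 0 of the p53 relatives and regulators, 3, 2 and 2 of the ATF4 targets, and 0, 3 and 1 of the genes repressed through p53 and p21, in the same order of comparisons. An adjusted p under 0.01 left 3 of the p53 relatives and regulators, 6 ATF4 targets and 4 repressed genes in MC26 against CT, and 9 other p53 targets, 5 relatives and regulators, 6 ATF4 targets and 6 repressed genes in M1B26 against MC26. Both thresholds call fewer genes by construction. Of the 15717 genes tested, the fold of 1.5 left 1463, 1725 and 964 called, in the same order of comparisons. An adjusted p under 0.01 left 3698, 5265 and 3685 of them. The fits that left out 1 library called 4524 to 6127, 6282 to 7941 and 4503 to 7166 genes. Without 1 library, counts ranged in MC26 against CT from 4 to 8 (targets), 18 to 23 (other targets), 5 to 8 (relatives and regulators), 9 to 10 (ATF4) and 6 to 8 (repressed), in M1B26 against CT from 3 to 5, 19 to 27, 11 to 14, 9 to 12 and 5 to 7, and in M1B26 against MC26 from 4 to 10, 10 to 17 (10 without M1B26 replicate 2), 6 to 12, 6 to 11 (6 without MC26 replicate 2 or M1B26 replicate 3) and 6 to 12 (6 without M1B26 replicate 2). Signs turned, from a main value that was not called, for ZMAT3 in MC26 against CT (0.0344 with offsets for length and GC content, 0.0371 with the block too, and -0.120 to 0.0148 without 1 library, positive without CT replicate 2 or MC26 replicate 1), for BAX in MC26 against CT (-0.0436 with library totals alone, -0.0210 and -0.0233 with the offset fits, and -0.0622 to 0.101 without 1 library, negative without CT replicate 2 or MC26 replicate 1), for SESN1 in M1B26 against CT (0.00630 and 0.00484 with the offset fits), for RRM2B there (-0.215 to 0.00961 without 1 library, positive without CT replicate 2), for BAX (-0.165 and -0.166) and MDM4 (0.0735 and 0.0709) there with the offset fits, and in M1B26 against MC26 for BAX with them (-0.144 and -0.143), for TP63 (-0.00034 with library totals alone and -0.00638 to 0.0648 without 1 library, negative without M1B26 replicate 1 or 3) and for MDM4 (-0.0190 to 0.0987 without 1 library, negative without MC26 replicate 1). The cause was not tested. BAX in M1B26 was then called lower in both offset fits against CT (adjusted p = 0.0400, and 0.0146 with the block) and in the blocked one against MC26 (0.0315 by edgeR). Over all genes, library totals alone made 35.8% of the calls in MC26 against CT higher, in place of 48.5%, and 39.6% in place of 51.5% in M1B26 against CT, and moved the median of all genes by less than 0.1.

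Deviations of same-numbered libraries of different lines correlated at -0.11 to 0.14. Libraries of different numbers were not compared in this way, so these values cannot exclude that equal numbers share a culture day. The replicate block called 5879, 7513 and 6009 genes in place of 6081, 7688 and 6215, and among the 10 targets it changed 4 calls, losing MDM2 in M1B26 against CT (adjusted p = 0.0527) and SESN1 in M1B26 against MC26 (0.0520) and adding SESN2 (0.0335) and BBC3 (0.0228) there (edgeR). The block with offsets for length and GC content also lost TP53INP1 in MC26 against CT (0.0637), ZMAT3 in M1B26 against both CT (0.0792) and MC26 (-0.27, 0.0566), and E2F7 between the derived lines (0.0731). With 3 libraries per line, RNA alone and 1 culture history per line, the spread between independently derived lines is not known, and changes of BBC3 and TP53INP1, the scarcest targets per kb, rest on the fewest counts.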
